A study of Mus musculus with 10 samples.

Results

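The regions described here are the 371 Ring1b peaks of embryonic stem cells (ESCs) that shared at least 1 bp with a Cbx2 peak, an Ezh2 peak and an H3K27me3 peak of the same cells, out of 2335 ESC Ring1b peaks and of 9769 peaks in 6 lists. They were selected on these measured ESC peaks, so their ESC coverage is a description. What the selection did not use is the Ring1b and H3K27me3 lists of neural stem cells (NSCs), the annotation and the sequence. ESCs of the J1 line were grown with fibroblast feeders, which were depleted before harvest, and NSCs were derived from J1 ESCs in culture, so both groups share 1 cell line. ChIP-seq was run in ESCs for Ring1b (antibody against RNF2), Cbx2, Ezh2 and H3K27me3, and in NSCs for Ring1b and H3K27me3. There was 1 library for each target and cell type, so no difference between the cell types has a replicate check and no p-value is given. The deposited lists hold peak starts and ends on mm9 without heights, so the depth is unknown and a missing peak means only that none was called. Chromatin for Ring1b had an additional EGS cross-linking step according to the study's methods, and the Ring1b and H3K27me3 lists therefore differ in preparation as well as in target.

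Polycomb proteins keep developmental genes silent in cooperating complexes. Polycomb repressive complex 1 contains the ubiquitin ligase Ring1b and a chromobox protein such as Cbx2, which can read trimethylated lysine 27 of histone H3 (H3K27me3), and Polycomb repressive complex 2 contains the methyltransferase Ezh2, which writes that mark. In ESCs the complexes sit over CpG-rich start sites of transcription factors and signalling molecules that are used later in development, and which of these genes stay covered differs between cell lineages.

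By NSC peaks the 371 regions fell into 4 states. In 170 regions (45.8%) there was both an NSC Ring1b and an NSC H3K27me3 peak, in 57 (15.4%) there was H3K27me3 alone, in 27 (7.28%) Ring1b alone and in 117 (31.5%) neither. The regions held the start site of 342 protein-coding genes, which is 1.54% of the 22208 gene names annotated. Most Hox, forkhead and Nkx genes, and the Dlx, Gata and Otx genes found, lay in regions with both NSC peaks. Over all 342 genes 51.2% did, and in regions over 6000 bp 68.1% did. Of 27 signalling genes 8 lay in regions with H3K27me3 alone, among them Shh, Fgf8 and Wnt6, and 12 in regions with neither, among them Ihh, Wnt5a and Bmp7. Over all 342 genes 14.3% lay with H3K27me3 alone and 27.5% with neither. Pou3f1, Pou3f3, Irx2, Irx5 and Sp9 lay in regions with Ring1b alone. Pax6, Olig2, Pou3f2, Sox9, Nr2f1 and Meis2, transcription factors known from neural progenitors, lay in regions with neither. Not all such genes did, as Nr2e1, a regulator of neural stem cells, and the proneural gene Neurog2 lay in regions with both. So did Atoh1 of the proneural family and the forebrain factors Dlx1 and Dlx2. The genes named are examples and not a count of neural factors. Of the 157 transcription factor genes outside the Hox clusters, 103 (65.6%) lay in regions with both and 28 (17.8%) in regions with neither.

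The start sites of the widest regions of each state, among regions that hold exactly 1 protein-coding start, are shown by the 250 bases before the annotated start, read from the mm9 sequence 5′ to 3′ on the strand of the gene, so that the CpG dinucleotides that Polycomb regions are known for can be seen. Capitals mark CG, and none of the windows overlaps an annotated exon. Cbx8 encodes a chromobox subunit of Polycomb repressive complex 1, and Pax2 encodes a paired-box factor of kidney and hindbrain development, and both lay in regions with both NSC peaks. Onecut3, a homeobox factor, and Cdx2, the caudal homeobox factor of trophoblast and gut, stood for H3K27me3 alone. Irx2, an Iroquois homeobox gene, and Sp9, a zinc finger gene of limb and forebrain, stood for Ring1b alone. Nr2f2, an orphan nuclear receptor, and Pax6, the paired-box factor of eye and neural progenitors, stood for neither.
Cbx8 (chr11:118902284-118902533, - strand): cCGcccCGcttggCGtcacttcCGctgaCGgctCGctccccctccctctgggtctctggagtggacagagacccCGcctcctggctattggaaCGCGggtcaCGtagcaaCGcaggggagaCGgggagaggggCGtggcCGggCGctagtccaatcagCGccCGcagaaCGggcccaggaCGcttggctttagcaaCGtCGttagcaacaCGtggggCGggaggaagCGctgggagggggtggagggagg
Pax2 (chr19:44830289-44830538, + strand): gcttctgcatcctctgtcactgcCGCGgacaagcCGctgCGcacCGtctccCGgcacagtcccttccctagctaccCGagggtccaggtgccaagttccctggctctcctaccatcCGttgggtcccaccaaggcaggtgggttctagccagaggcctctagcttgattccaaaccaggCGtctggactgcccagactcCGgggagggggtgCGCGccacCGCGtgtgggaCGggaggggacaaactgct
Onecut3 (chr10:79957401-79957650, + strand): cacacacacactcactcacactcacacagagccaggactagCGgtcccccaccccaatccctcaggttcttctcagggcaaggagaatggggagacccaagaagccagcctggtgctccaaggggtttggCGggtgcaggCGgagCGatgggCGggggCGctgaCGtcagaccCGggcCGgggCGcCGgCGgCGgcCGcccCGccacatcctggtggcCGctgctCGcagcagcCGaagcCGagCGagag
Cdx2 (chr5:148118847-148119096, - strand): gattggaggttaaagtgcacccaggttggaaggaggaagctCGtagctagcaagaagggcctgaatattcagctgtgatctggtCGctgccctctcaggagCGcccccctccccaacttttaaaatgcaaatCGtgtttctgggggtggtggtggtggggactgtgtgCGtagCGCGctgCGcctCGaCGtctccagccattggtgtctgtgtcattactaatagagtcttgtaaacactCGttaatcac
Irx2 (chr13:72765995-72766244, + strand): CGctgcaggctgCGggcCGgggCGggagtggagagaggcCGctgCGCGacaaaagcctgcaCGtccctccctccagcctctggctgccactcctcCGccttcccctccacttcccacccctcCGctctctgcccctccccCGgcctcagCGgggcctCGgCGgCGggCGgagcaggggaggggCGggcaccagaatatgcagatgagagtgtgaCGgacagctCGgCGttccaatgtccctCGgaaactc
Sp9 (chr2:73109732-73109981, + strand): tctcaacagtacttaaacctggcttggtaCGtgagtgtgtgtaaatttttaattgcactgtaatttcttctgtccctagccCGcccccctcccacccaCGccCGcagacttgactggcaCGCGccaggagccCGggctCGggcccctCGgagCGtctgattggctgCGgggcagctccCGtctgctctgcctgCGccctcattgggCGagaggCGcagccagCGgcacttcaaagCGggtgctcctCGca
Nr2f2 (chr7:77511622-77511871, - strand): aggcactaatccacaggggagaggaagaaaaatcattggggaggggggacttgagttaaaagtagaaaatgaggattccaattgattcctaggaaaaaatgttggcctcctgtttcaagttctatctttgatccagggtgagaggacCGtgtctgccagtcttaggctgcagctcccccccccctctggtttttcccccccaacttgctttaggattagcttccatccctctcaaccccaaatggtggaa
Pax6 (chr2:105508803-105509052, + strand): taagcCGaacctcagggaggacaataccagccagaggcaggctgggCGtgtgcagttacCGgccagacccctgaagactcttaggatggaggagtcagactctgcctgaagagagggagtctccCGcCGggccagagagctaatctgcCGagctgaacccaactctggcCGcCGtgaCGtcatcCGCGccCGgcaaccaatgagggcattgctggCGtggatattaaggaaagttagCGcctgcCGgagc

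The windows held between 1 and 24 CG. The Cbx8 window had 24, the Irx2 window 21, the Onecut3 window 20 and the Sp9 window 18, while the Pax2 and Pax6 windows had 15 each and the Cdx2 window 11. Nr2f2 had 1, at the start of its longest annotated model. The distribution over all 342 starts is given further below.

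**Figure D1:**
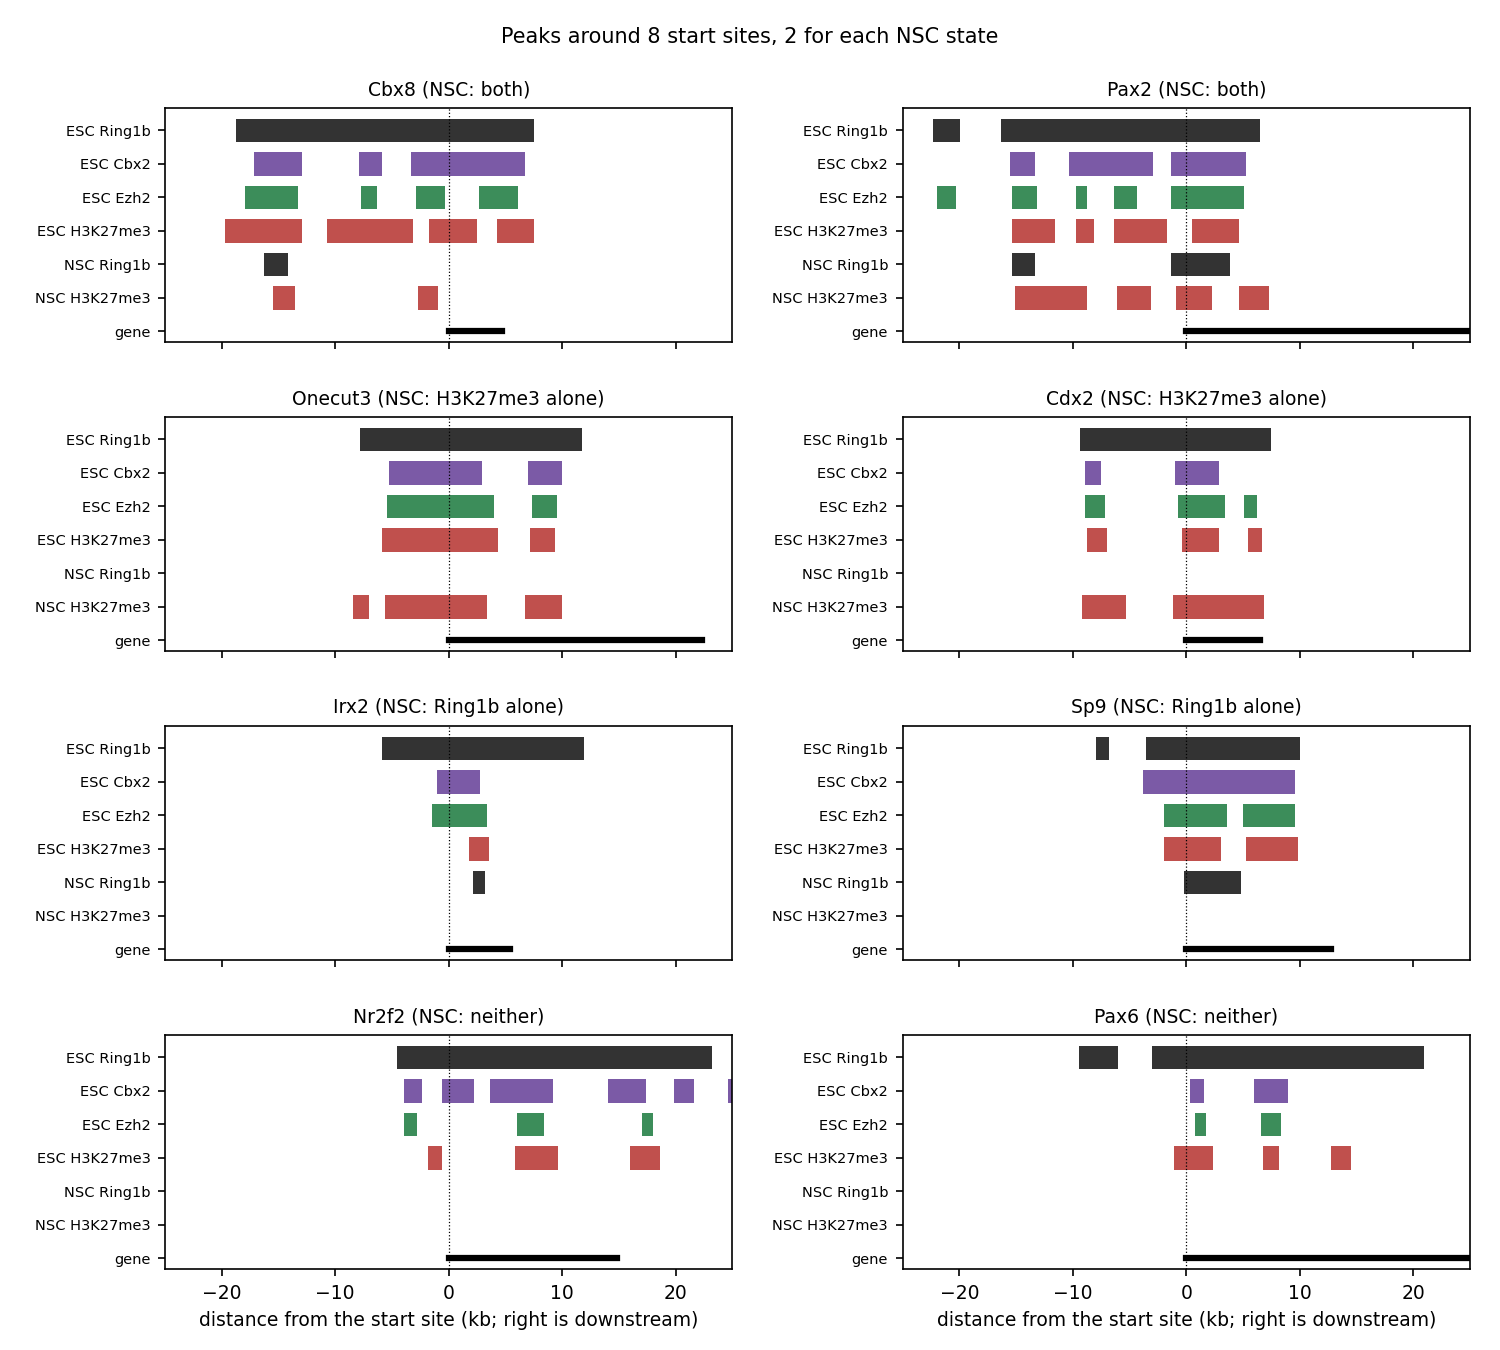
Peaks of the 6 lists (bars) around the 8 start sites whose sequences are printed, by distance from the start in kb, with downstream to the right and the gene body as a black line cut at the edge of the panel. The ESC rows are filled in every panel because they chose the regions, while NSC peaks of both targets are drawn for Cbx8 and Pax2, of H3K27me3 for Onecut3 and Cdx2, of Ring1b for Irx2 and Sp9, and of neither for Nr2f2 and Pax6.

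The Cbx8 region was 26200 bp wide and lay under 16200 bp of Cbx2, 12000 bp of Ezh2 and 20800 bp of H3K27me3 peaks in ESCs, but under only 2200 bp of Ring1b and 3800 bp of H3K27me3 peaks in NSCs. In the Pax2 region, 22800 bp wide, NSC Ring1b covered 7200 bp and NSC H3K27me3 14400 bp, and both covered the start. So the state with both ranged from short peaks away from the start to peaks over the start itself. In the Cdx2 region of 16800 bp, H3K27me3 peaks covered 6200 bp in ESCs and 11800 bp in NSCs, with no NSC Ring1b peak within 24800 bp of the region. The Onecut3 region of 19600 bp had 12400 bp of H3K27me3 in ESCs and 13000 bp in NSCs, and the nearest NSC Ring1b peak was 336000 bp away. In the Irx2 region of 17800 bp, NSC Ring1b was a single peak of the smallest width, 1000 bp, that began 2155 bp from the start, and in the Sp9 region of 13600 bp it covered 5000 bp including the start. For Nr2f2 (27800 bp) and Pax6 (24000 bp) the nearest NSC peak of either target was 54200 bp and 536400 bp from the region.

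The share of regions with both NSC peaks was read against the other ESC Ring1b peaks. Over all 2335 ESC Ring1b peaks, 11.7% had both NSC peaks, 14.0% H3K27me3 alone, 7.88% Ring1b alone and 66.4% neither. The shares of the 371 regions with H3K27me3 alone and Ring1b alone, 15.4% (95% interval 11.8 to 19.4) and 7.28% (4.85 to 10.4), were close to those backgrounds and are not a result about the regions. The share with both, 45.8% (40.7 to 51.0), was above its background and the share with neither, 31.5% (26.8 to 36.5), was below it. All intervals are exact Clopper-Pearson intervals and cover counting error over regions only.

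Classes of ESC Ring1b peaks that lacked a Cbx2 peak had lower shares with both NSC peaks. The 468 ESC Ring1b peaks that lacked Cbx2 alone, with Ezh2 and H3K27me3, had both NSC peaks in 5.13% (3.31 to 7.53) and neither in 59.2%. In the 546 peaks with H3K27me3 but no Ezh2 or Cbx2 the share with both was 4.58%, in the 831 peaks with no other list it was 3.61%, and in the 63 peaks with Ezh2 alone it was 12.7% (5.65 to 23.5). The remaining 56 peaks had Cbx2 but not both Ezh2 and H3K27me3, and 28.6% of them (17.3 to 42.2) had both NSC peaks and 51.8% (38.0 to 65.3) neither. Among the 56, 20 lacked Ezh2 alone and 14 lacked H3K27me3 alone. Their median width was 3800 bp, against 2800 bp in the 468 peaks without Cbx2. The interval for both overlapped that of the regions. Width moved with this difference, since the median width was 7000 bp in the 371 regions and 2000 bp in the other ESC Ring1b peaks, and it was therefore held within limits. Among peaks 3200 to 6000 bp wide, both NSC peaks were present in 36 of 139 regions (25.9%, 18.8 to 34.0) against 11 of 174 peaks without Cbx2 (6.32%, 3.20 to 11.0). Among peaks of 1000 to 3000 bp the shares were 24.1% (10.3 to 43.5, n = 29) and 4.33% (2.26 to 7.45, n = 277). The intervals did not overlap in either of these width bins, in which the median widths were 4400 against 3600 bp and 2600 against 2400 bp. Wider peaks without Cbx2 were few, with both NSC peaks in 0 of 13 at 6200 to 10000 bp (0 to 24.7) and in 1 of 4 above 10000 bp (0.631 to 80.6). Within the 371 regions the share rose from 25.9% at 3200 to 6000 bp to 54.7% (43.5 to 65.4, n = 86) at 6200 to 10000 bp and 68.4% (59.1 to 76.7, n = 117) above 10000 bp. The peaks with Cbx2 but not both Ezh2 and H3K27me3 had both NSC peaks in 11.1% (1.38 to 34.7, n = 18) at 1000 to 3000 bp, 32.0% (14.9 to 53.5, n = 25) at 3200 to 6000 bp and 5 of 10 (18.7 to 81.3) at 6200 to 10000 bp, so their intervals overlapped those of the regions in each of these bins. Peak height, which the lists do not give, could differ between the classes too, and its part was not tested.

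**Figure D2:**
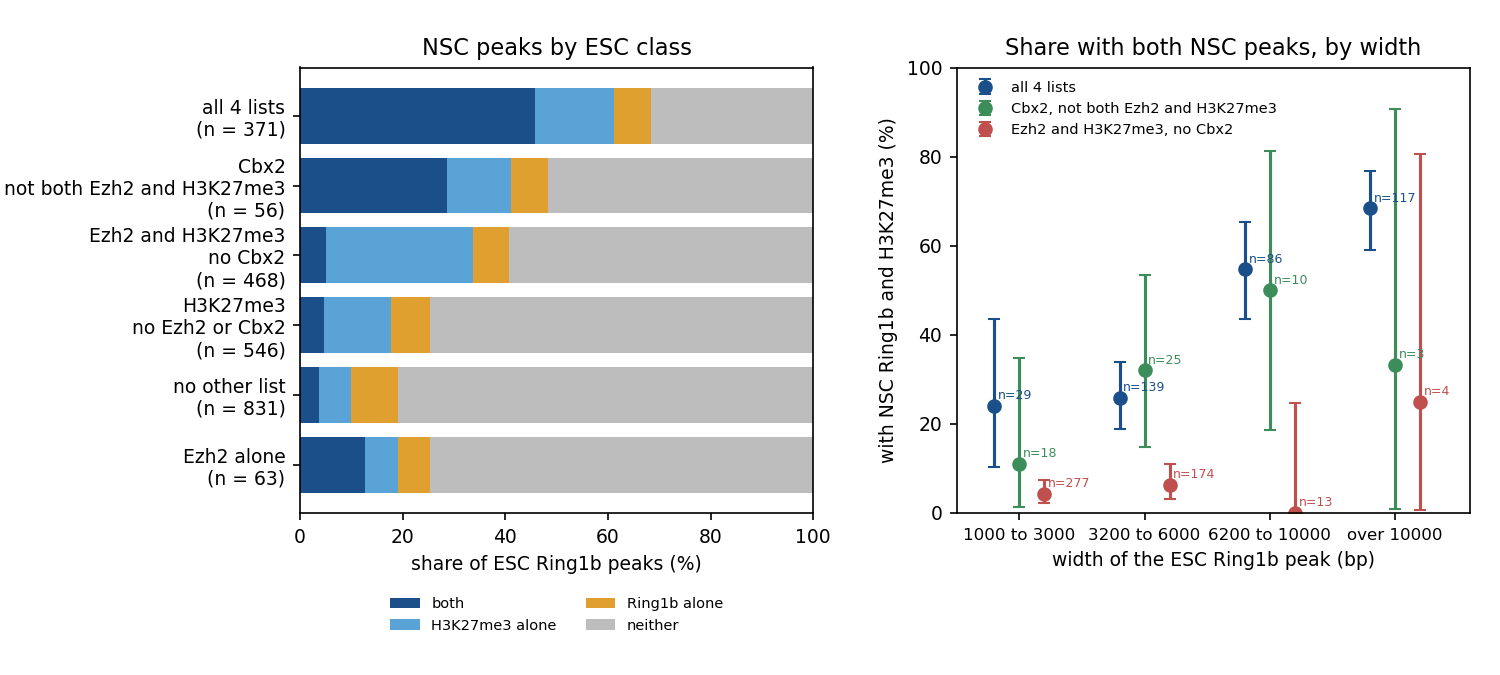
Left, the share of ESC Ring1b peaks (%) in each NSC state for the 371 regions under all 4 ESC lists and for the other 5 classes of ESC Ring1b peaks; right, the share with both NSC peaks by width of the ESC Ring1b peak (bp), with exact 95% intervals, for the regions (blue), for peaks with Cbx2 but not both Ezh2 and H3K27me3 (green) and for peaks with Ezh2 and H3K27me3 but no Cbx2 (red). At 3200 to 6000 bp the points lie at 25.9%, 32.0% and 6.32%.

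Genes of the regions were assigned the state of the region that holds their start, so genes that share a region share a state. Of the 342 genes, 175 lay in regions with both NSC peaks, 49 with H3K27me3 alone, 24 with Ring1b alone and 94 with neither. Transcription factor families other than the Hox clusters gave 157 of their 412 annotated genes (38.1%, against 1.54% of all genes), and signalling and neuronal families gave 37 of 516 (7.17%). Of the 157 transcription factor genes 103 (65.6%, 57.6 to 73.0) lay with both NSC peaks and 28 (17.8%, 12.2 to 24.7) with neither. Of the 37 signalling and neuronal genes 6 (16.2%, 6.19 to 32.0) lay with both and 19 (51.4%, 34.4 to 68.1) with neither. Over the start itself both NSC peaks lay in 64 of the 157 (40.8%, 33 to 48.9) and in 1 of the 37 (2.70%, 0.0684 to 14.2). The 117 genes of none of these families lay between, with 38 (32.5%, 24.1 to 41.8) and 45 (38.5%, 29.6 to 47.9). Width moved with these groups as well: the median region of the transcription factor genes was 10800 bp wide and that of the signalling and neuronal genes 5000 bp. In regions of at most 6000 bp, 13 of 26 transcription factor genes (50%, 29.9 to 70.1) and 3 of 28 signalling and neuronal genes (10.7%, 2.27 to 28.2) lay with both NSC peaks. In regions above 6000 bp the counts were 90 of 131 (68.7%) and 3 of 9 (33.3%, 7.49 to 70.1), and there the interval of the smaller group spanned the larger group's share.

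**Figure D3:**
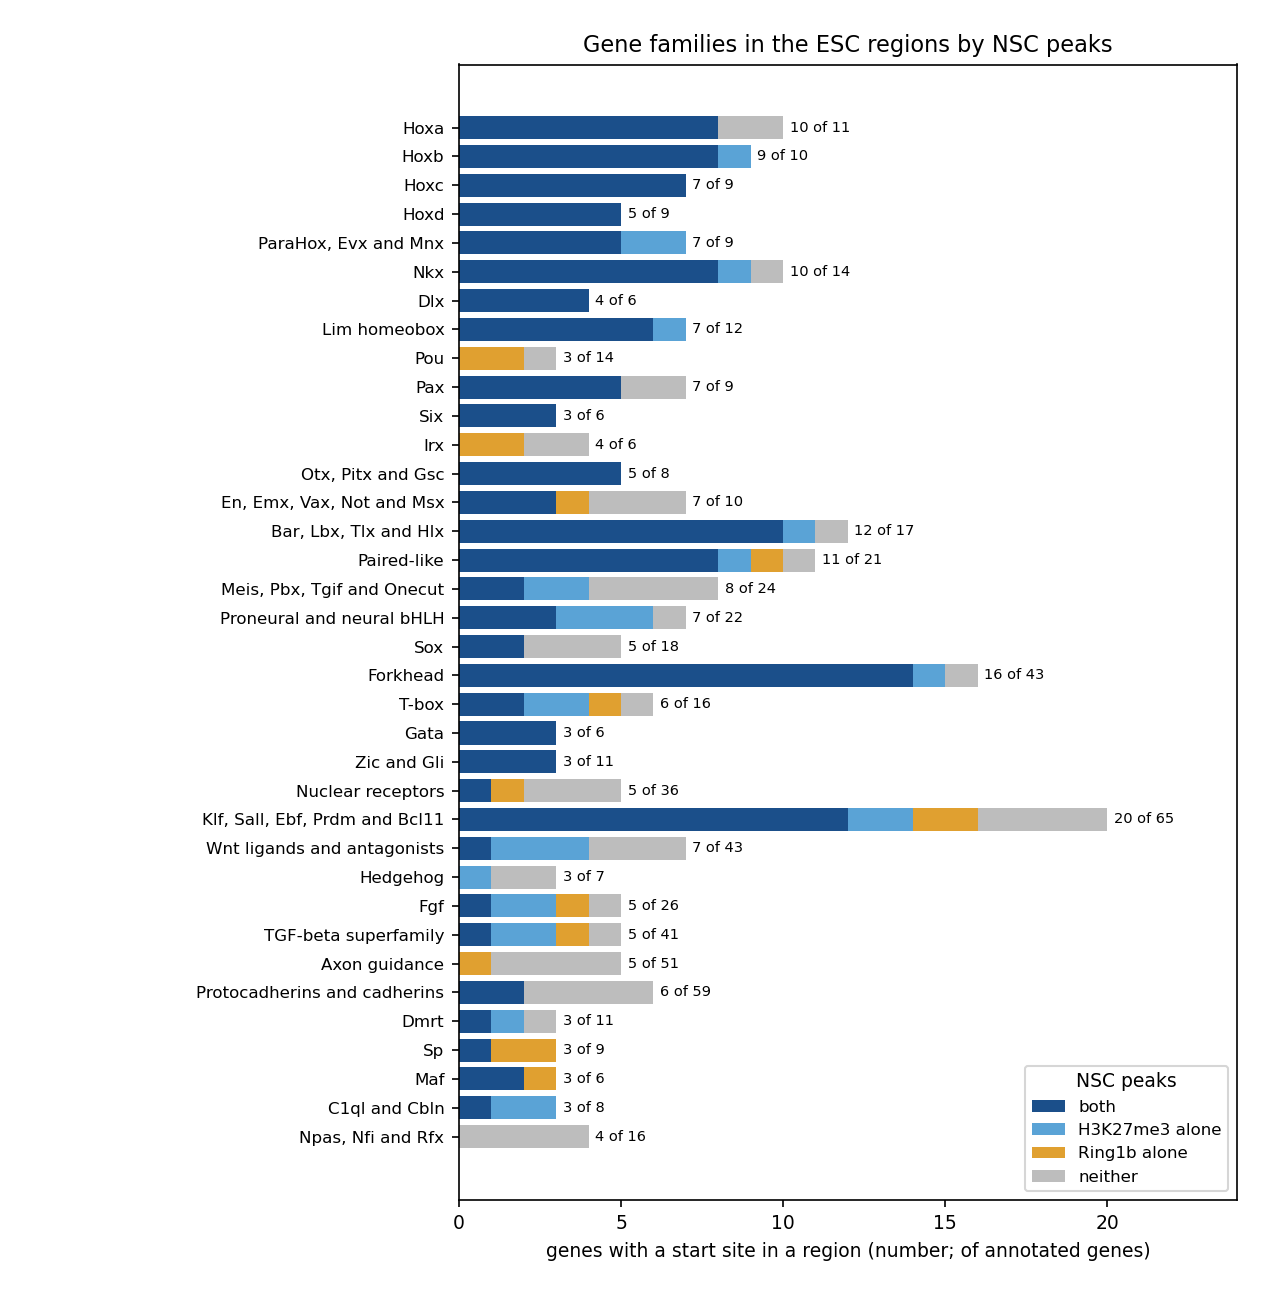
Number of genes with a start in a region for each family with at least 3 such genes, stacked by NSC state, with the number in the regions and the number annotated written beside each bar; the last 5 families were added after the genes of the regions had been seen. Blue for both NSC peaks fills the Dlx, Otx, Gata and Zic bars, and no blue is drawn for Pou, Irx, Hedgehog or axon guidance genes.

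The Hox clusters, whose genes encode the position along the body axis, had 31 of 39 annotated genes in the regions. Of these, 28 (90.3%, 74.2 to 98.0) lay with both NSC peaks. They were Hoxa3, Hoxa5, Hoxa6, Hoxa7, Hoxa9, Hoxa10, Hoxa11 and Hoxa13, Hoxb2 to Hoxb9, Hoxc5, Hoxc6, Hoxc8, Hoxc9, Hoxc10, Hoxc11 and Hoxc12, and Hoxd9 to Hoxd13. The exceptions were Hoxb13 with H3K27me3 alone, and Hoxa2 and Hoxa4 with neither. This is the state of the region, and over the start itself 15 of the 31 genes (48.4%, 30.2 to 66.9) had both NSC peaks, 3 H3K27me3 only, 6 Ring1b only and 7 neither. Hoxa5 lay in the widest region with both, yet its start was 12214 bp from NSC Ring1b and 20414 bp from NSC H3K27me3. The 4 widest regions with both NSC peaks were Hox regions of 59000, 37600, 36400 and 35400 bp, and they held 7, 5, 6 and 3 starts, so the 31 genes are 12 regions and not 31 independent cases. The widest, with starts from Hoxa5 to Hoxa11 along the chromosome, lay under 41800 bp of H3K27me3 in ESCs and 29000 bp in NSCs. The Hoxd region lay under 21600 bp of H3K27me3 in ESCs and 35000 bp in NSCs, the reverse order. Hoxa2, which patterns the hindbrain, had a region of 20400 bp with 12600 bp of ESC H3K27me3 and no NSC peak within 36000 bp of the region. Hoxa3 was counted in the widest region by its annotated start, which lies between those of Hoxa6 and Hoxa7. The other end of its annotated model lies in the Hoxa2 region. That start was 3465 bp from NSC Ring1b and 11665 bp from NSC H3K27me3, so Hoxa2 and Hoxa3 are not a clear contrast. Annotated Hox genes with no start in a region included Hoxb1, Hoxc4, Hoxc13, Hoxd1, Hoxd3, Hoxd4 and Hoxd8.

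MicroRNA genes also lay in the regions. Of 13 annotated, 7 lay with both NSC peaks, 5 with H3K27me3 alone and 1 with neither, and 5 of the 13 matched a RefSeq entry by symbol. These 5 were Mir196b in the Hoxa region, Mir10a beside Hoxb4 and Hoxb3, Mir196a-2 beside Hoxc9, Hoxc10 and Hoxc11, Mir615 beside Hoxc5, Hoxc6 and Hoxc8, and Mir129-2 in a region with no protein-coding start. All 5 lay with both NSC peaks. Mature sequences from RefSeq (GRCm38) are given with the seed, bases 2 to 8, in capitals, because they show which of these microRNAs share a seed.
mmu-miR-196a-5p: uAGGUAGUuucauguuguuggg
mmu-miR-196b-5p: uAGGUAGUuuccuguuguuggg
mmu-miR-10a-5p: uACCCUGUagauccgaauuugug
mmu-miR-615-3p: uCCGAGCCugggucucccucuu
mmu-miR-129-5p: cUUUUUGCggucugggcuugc
The miR-196a and miR-196b sequences shared the seed AGGUAGU although their genes lie in different Hox clusters, and the other 3 had different seeds. As Mir196b, Mir10a, Mir196a-2 and Mir615 share regions with Hox genes, their state is not a further observation beside the Hox counts.

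Homeobox families outside the Hox clusters had 88 of 156 annotated genes (56.4%) in the regions, of which 59 lay with both NSC peaks, 8 with H3K27me3 alone, 6 with Ring1b alone and 15 with neither. The share with both, 67.0% (56.2 to 76.7), was above the 51.2% of all 342 genes. It was close to the 68.1% (61.4 to 74.2) of all member genes in regions over 6000 bp. Families had few genes each, so their states describe the genes named and are not read as family traits. In several families every gene found lay with both. They included Dlx1, Dlx2, Dlx5 and Dlx6, which direct forebrain interneurons and craniofacial structures, Six2 and Six3, and the head and pituitary factors Otx1, Otx2, Pitx1 and Gsc. The region of Dlx1 and Dlx2, 21200 bp wide, lay under NSC Ring1b for 96.2% and under NSC H3K27me3 for 76.4% of its length. That of Otx2, 14200 bp wide, lay under them for 97.2% and 83.1%, while ESC H3K27me3 covered only 14.1% of it. Of the Nkx genes Nkx1-1, Nkx2-1, Nkx2-3, Nkx2-4, Nkx2-5, Nkx3-2, Nkx6-1 and Nkx6-2 lay with both, Nkx2-9 with H3K27me3 alone and Nkx2-2 with neither. Among LIM homeobox genes Lhx4, Lhx5, Lhx6, Lhx8, Lhx9 and Lmx1b lay with both and Lhx1 with H3K27me3 alone. The ParaHox, Evx and Mnx set had Evx1, Evx2, Gsx2, Mnx1 and Pdx1 with both, and Cdx2 and Gsx1 with H3K27me3 alone.

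Other homeobox families were divided. Pax1, Pax2, Pax3, Pax5 and Pax7 lay with both NSC peaks, and Pax6 and Pax9 with neither. The Pou family had 3 of 14 genes in the regions, and none lay with both: Pou3f1 and Pou3f3 lay with Ring1b alone and Pou3f2 with neither. The Pou3f2 region, 22800 bp wide, lay under 14600 bp of Cbx2, 8400 bp of Ezh2 and 6400 bp of H3K27me3 in ESCs, and the nearest NSC peak was 785800 bp away. In the Pou3f1 region of 5200 bp NSC Ring1b covered 3600 bp, and in the Pou3f3 region of 9400 bp it covered 1600 bp and stopped 209 bp from the start. The Iroquois genes divided in the same way, with Irx2 and Irx5 under Ring1b alone, Irx1 and Irx3 under neither, and no Irx region with both. Emx1, Msx1 and Vax1 lay with both, En2 with Ring1b alone, and Emx2, En1 and Vax2 with neither. The Vax2 region was 1 of only 2 regions without an NSC peak that had one within 5000 bp, at 2200 bp for Ring1b and 3600 bp for H3K27me3.

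Bar, Lbx, Tlx and Hlx genes with both NSC peaks were Barhl2, Barx1, Barx2, Dbx1, Hmx2, Hmx3, Lbx1, Tlx1, Tlx2 and Tlx3, with Hmx1 under H3K27me3 alone and Hlx under neither. Paired-like genes with both included Alx1, Alx4, Dmbx1, Otp, Shox2 and Uncx, and Rax lay with H3K27me3 alone and Prrx1 with neither. In the group of Meis, Pbx, Onecut and related homeobox genes 4 of 8 lay under neither, namely Meis1, Meis2, Prox1 and Tshz3, while Onecut2 lay with both and Onecut1 and Onecut3 with H3K27me3 alone. The Meis2 region, 17200 bp wide, lay under Cbx2 for 90.7% of its length in ESCs, and the nearest NSC peak was 2291974 bp from its start.

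Among bHLH genes, which include the proneural factors, 9 of 56 (16.1%) had a start in the regions, and none of the 13 Hes, Hey and Id genes did. Atoh1, Neurod2 and Neurog2 lay with both NSC peaks, as did Hand2 and Tal1 of heart and blood. Neurog1, Ptf1a and Bhlhe23 lay with H3K27me3 alone, and Olig2, the factor of oligodendrocytes and motor neurons, with neither. So the paralogues Neurog1 and Neurog2 lay in different states. The Neurog2 region of 11000 bp lay under NSC Ring1b for 100% and NSC H3K27me3 for 87.3% of its length. The Neurog1 region of 4000 bp lay under NSC H3K27me3 for 50% and the nearest NSC Ring1b peak was 5276 bp from its start, so the distance of that peak decides its state.

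The forkhead family had 16 of 43 genes (37.2%) in the regions, and 14 of them lay with both NSC peaks, among them Foxa1, Foxa2, Foxb1, Foxb2, Foxc2, Foxd1, Foxd2, Foxd4, Foxf1a, Foxf2, Foxi3, Foxl2 and Foxq1. Foxe3 lay with H3K27me3 alone and Foxc1 with neither. Foxa2, the pioneer factor of endoderm and floor plate, had a region of 12400 bp in which H3K27me3 covered 3600 bp in ESCs and 9200 bp in NSCs, while NSC Ring1b covered 2200 bp and not the start.

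Gata2, Gata3 and Gata6, the blood and endoderm factors, and Zic1, Zic2 and Zic4 all lay with both NSC peaks. Of the Sox genes Sox14 and Sox17 lay with both and Sox6, Sox9 and Sox21 with neither, and none of these 5 starts lay under an NSC Ring1b peak. The Sox9 region of 7000 bp was covered for 80.0% by Cbx2 in ESCs, and the nearest NSC peak was 382662 bp from its start. The T-box genes took all 4 states, with Eomes and Tbx18 in both, T and Tbx1 in H3K27me3 alone, Tbx4 in Ring1b alone and Tbx2 in neither. T (Brachyury), the factor of the primitive streak, had a region of 4000 bp that lay under 3400 bp of H3K27me3 in ESCs and 1800 bp in NSCs. Among nuclear receptors Nr2e1, a regulator of neural stem cells, lay with both, Nr3c2 with Ring1b alone and Nr2f1, Nr2f2 and Nr4a3 with neither. The Nr2e1 region of 18000 bp lay under 13000 bp of Ring1b and 12200 bp of H3K27me3 in NSCs, so this neural stem cell gene differed in state from Pax6, Olig2, Pou3f2 and Sox9.

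The zinc finger and related group had Ebf2, Ebf3, Fezf1, Fezf2, Osr1, Prdm6, Prdm8, Prdm12, Prdm13, Sim1, Sim2 and Wt1 with both NSC peaks. Egr4 and Prdm16 lay with H3K27me3 alone, Bcl11a and Insm1 with Ring1b alone, and Ebf1, Egr3, Osr2 and Sall3 with neither. Families added after the genes of the regions had been seen are given by examples of their members only. Sp8, Mafa, Dmrt3, Skor1 and C1ql1 lay with both, Dmrt2, Skor2, C1ql2 and Cbln1 with H3K27me3 alone, Sp5, Sp9 and Maf with Ring1b alone, and Dmrta2, Nfix, Npas2, Npas3 and Rfx4 with neither.

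Signalling genes had 27 of 199 annotated members (13.6%) in the regions, of which 4 lay with both NSC peaks, 8 with H3K27me3 alone, 3 with Ring1b alone and 12 with neither. Over all 342 genes the shares were 51.2%, 14.3%, 7.02% and 27.5%. In regions of at most 6000 bp, 42.1% of all member genes (33.3 to 51.2) lay with neither. The signalling and neuronal genes there had 53.6% (33.9 to 72.5). These intervals overlapped, so the counts with neither are not read as a trait of signalling genes. The 4 with both were Wnt1, Fgf9, Gdf6 and the Notch ligand Dll4. Those with H3K27me3 alone were the ligands Shh, Wnt6, Wnt7b, Wnt10b, Fgf3, Fgf8 and Gdf7, and the BMP antagonist Nog. This is the state of the region, and the starts of Shh, Fgf8, Gdf7 and Nog were among those under no NSC peak. The Shh region, 11200 bp wide, lay under 5600 bp of Cbx2, 6400 bp of Ezh2 and 9000 bp of H3K27me3 in ESCs, and under 5400 bp of H3K27me3 in NSCs. The Wnt6 region, 3800 bp wide, lay under 1400 bp of H3K27me3 in ESCs and 2800 bp in NSCs. The Fgf8 region, 3000 bp wide, lay under 2600 bp and 1800 bp. The nearest NSC Ring1b peak was 92404 bp from the start of Fgf8, 253840 bp from that of Shh and 1946465 bp from that of Wnt6.

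Under neither lay the hedgehog ligands Dhh and Ihh, Wnt5a and the Wnt receptors Fzd1 and Fzd8, Bmp7, Fgfr3, Efna5, and the guidance genes Ntng2, Plxnc1, Plxnd1 and Sema6a. Under Ring1b alone lay Fst, Fgf12 and Sema5b. By region the 3 hedgehog ligands were thus divided, with the Shh region under H3K27me3 in NSCs and those of Dhh and Ihh under no NSC peak. At the start they were not divided. The start of Shh lay 40 bp from NSC H3K27me3, and no start of the 3 lay under an NSC peak. The Fgfr3 region, 4000 bp wide, lay under H3K27me3 for 100% of its length in ESCs, and the nearest NSC H3K27me3 peak was 288372 bp from its start.

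Neuronal families, made of ion channels, transmitter receptors and cadherins, had 10 of 317 annotated genes (3.15%) in the regions. Pcdh10 and Pcdh17 lay with both NSC peaks, the potassium channel Kcna1 with H3K27me3 alone, and Cdh2, Cdh4, Cdh22, Pcdh7, Gabbr2, Grid1 and Adrb1 with neither. No sodium or calcium channel gene of 39 had a start in a region. Cdh2 encodes N-cadherin, the adhesion molecule of neuroepithelium, and its region of 3000 bp lay under 2400 bp of H3K27me3 in ESCs.

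Among the 117 genes of no family, the ones named here were picked after their values were seen. Reln, the extracellular guide of neuronal migration, had a region of 3600 bp that lay under 2600 bp of H3K27me3 in ESCs and 3000 bp in NSCs, with no NSC Ring1b peak. Ccnd2, a D-type cyclin, lay with Ring1b alone, where NSC Ring1b covered 2000 bp of 9200 bp and ended 3934 bp from the start. Under neither lay Bcan, a proteoglycan of brain matrix, and Gad2, an enzyme of GABA synthesis, whose regions of 3000 and 5000 bp lay under 2600 and 3200 bp of H3K27me3 in ESCs.

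Marker lists gave the same regions another reading. Of 19 neural stem cell genes 5 had a start in the regions, with Pax6, Olig2, Pou3f2 and Sox9 under neither and Nr2e1 under both. Of 12 endoderm genes 7 did, among them Foxa1, Foxa2, Gata6, Pdx1 and Sox17 under both and Cdx2 under H3K27me3 alone. Of 18 mesoderm and heart genes 7 did, with Eomes, Foxc2, Foxf1a, Hand2 and Nkx2-5 under both, T under H3K27me3 alone and Foxc1 under neither. These are states of the regions. The start of Pdx1 itself lay under no NSC peak, and those of Foxa2, Sox17, Foxf1a and Nkx2-5 under NSC H3K27me3 only. Of the Polycomb subunit genes Cbx8 and Bmi1 lay under both, and neither start lay itself under an NSC peak. No pluripotency gene of 15, no CDK inhibitor of 7 and no housekeeping gene of 14 had a start in a region. Of 12 fibroblast genes, checked because feeders were used, Pdgfra lay with both and Prrx1 with neither. By list, 4 of the 12 starts lay under ESC Ring1b, 3 under ESC Cbx2, 2 under ESC Ezh2, 2 under ESC H3K27me3 and 1 under NSC Ring1b. The collagen genes Col1a1, Col1a2 and Col3a1 were among those under none of the 6 lists. Peak lists do not report expression, so they cannot check the cell type. In the NSC H3K27me3 list the start of Sox2, a gene known from neural stem cells as well as ESCs, lay under a peak, and Sox2 had no start in a region. Gata4, an endoderm and heart gene with no start in a region, had NSC peaks 1128 bp (Ring1b) and 528 bp (H3K27me3) from its start. These lists and the families were drawn up with earlier results of these data known.

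The state of a region was not always the state at the start. Of the 175 genes in regions with both NSC peaks, 101 (57.7%) had both over the start itself, 25 H3K27me3 only, 27 Ring1b only and 22 neither. Of the 49 genes in regions with H3K27me3 alone 32 had it over the start, and of the 24 in regions with Ring1b alone 13 did. Over all genes annotated 0.617% had both NSC peaks over the start. Genes in regions with both but with no NSC peak over the start included Hoxa3, Hoxa5, Hoxa6, Hoxa7, Hoxb3, Wnt1, Fgf9, Cbx8 and Bmi1. The start of Gata3 lay under NSC Ring1b and 60 bp from NSC H3K27me3, and that of Shh 40 bp from NSC H3K27me3, so several of these differences are below the 200 bp step of the peak calls. Under the ESC lists, which chose the regions, the starts were not all covered either: 237 of 342 lay under Cbx2, 262 under Ezh2, 244 under H3K27me3 and 166 under these 3 together.

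NSC coverage differed among the states that had it. In the 170 regions with both, the median share of the region under NSC Ring1b was 63.7% (quartiles 39.0 and 90.4) and under NSC H3K27me3 66.3% (47.5 and 87.4), and in 163 of them the peaks of both targets shared a base inside the region. In the 57 regions with H3K27me3 alone the median under NSC H3K27me3 was 50% (34.5 and 78.9). In the 27 with Ring1b alone the median under NSC Ring1b was 27.8% (18.9 and 43.4), or 1600 bp, which is close to the smallest peak width of 1000 bp. NSC H3K27me3 covered more bp than ESC H3K27me3 in 103 of the 170 regions with both (60.6%, 52.8 to 68.0) and in 20 of the 57 with H3K27me3 alone (35.1%, 22.9 to 48.9). Libraries of different depth can call peaks of different width, and depth is unknown, so the part of depth in these counts was not tested.

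**Figure D4:**
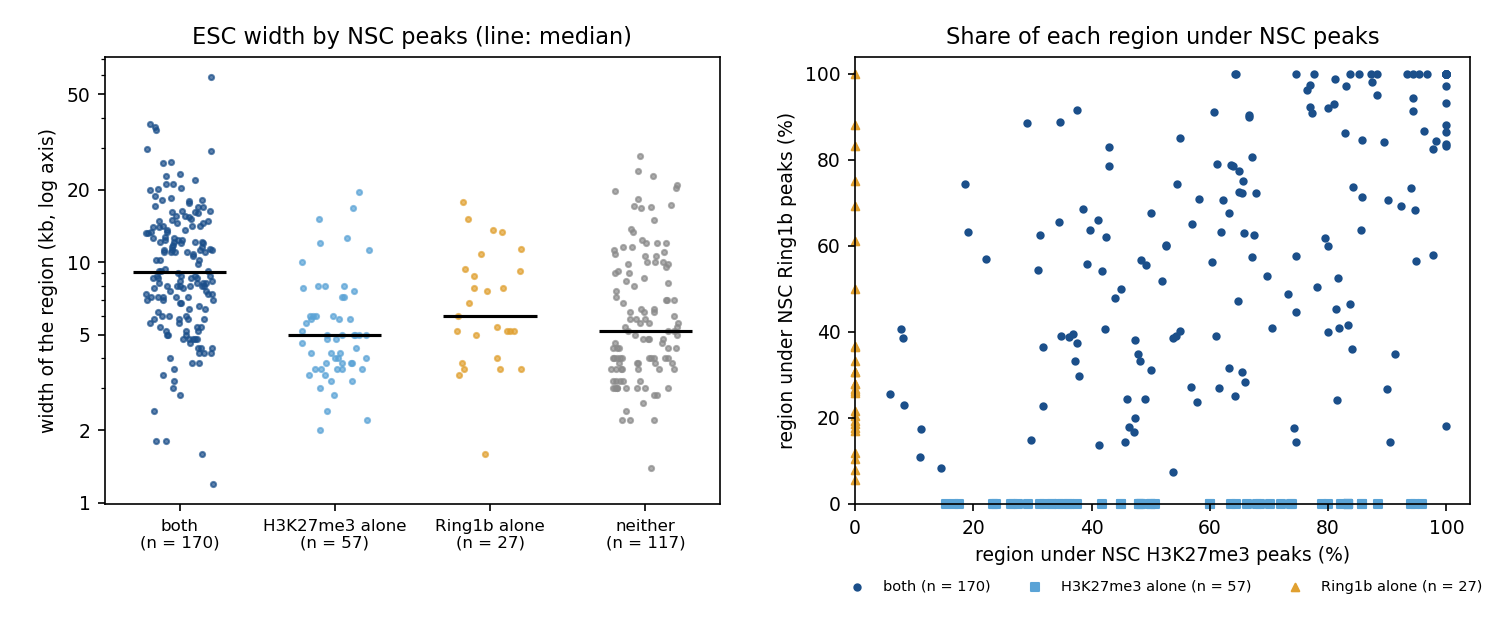
Left, width of each of the 371 regions (kb, log axis) by NSC state with the median as a line; right, the share of each region (%) under NSC H3K27me3 and under NSC Ring1b peaks, where each point is a region and the 117 regions with neither are not drawn. Median widths were 9100, 5000, 6000 and 5200 bp from left to right, and points with Ring1b alone lie mostly below 50%.

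Regions with neither NSC peak mostly had no NSC peak close by. The nearest NSC Ring1b peak was at a median of 666000 bp and the nearest NSC H3K27me3 peak at 651600 bp, and 2 of 117 regions had a peak of either within 5000 bp. Regions with H3K27me3 alone lay at a median of 444200 bp from NSC Ring1b. Those with Ring1b alone lay at 817000 bp from NSC H3K27me3. The state excludes an overlapping peak, and distances from positions outside the regions were not computed. The distances are therefore a description only. In ESCs the median share of the regions with neither was 44.8% under Cbx2, 54.8% under Ezh2 and 62.5% under H3K27me3, against 61.9%, 57.1% and 59.0% in the regions with both. In length the medians were 2200 against 5600 bp of Cbx2, 3000 against 4900 bp of Ezh2 and 3000 against 5000 bp of H3K27me3, as the regions with both were wider, with a median of 9100 against 5200 bp. Neighbouring regions within 100000 bp of each other formed 63 pairs, and 38 of them (60.3%, 47.2 to 72.4) had the same state. Some pairs match by the state shares alone, of which the largest were 45.8% and 31.5%, and that expected share was not computed. Pairs in the same gene cluster are also not independent, so the count is a description only. Beside Pou3f3, whose region had Ring1b alone, a region of 4400 bp with neither lay 8991 bp from its start.

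Not all regions held a protein-coding start. Of the 371, 299 did and 72 did not, 26 held the starts of at least 2 genes, and 20 of the 72 held the start of a gene of another type. Without a protein-coding start were 30 of the 170 regions with both (17.6%, 12.2 to 24.2) and 27 of the 117 with neither (23.1%, 15.8 to 31.8), and these intervals overlapped. Other gene types with a start in the regions were 59 lincRNAs and 46 processed transcripts. Of the lincRNAs 23 lay with both and 24 with neither.

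CpG content at the starts, which the selection did not use, differed by state. In the 250 bases before the start, the median was 5.60 CG per 100 bases in the 175 genes with both NSC peaks (quartiles 3.40 and 8.40), 8.40 in the 49 with H3K27me3 alone (5.20 and 11.2), 7.80 in the 24 with Ring1b alone (5.0 and 12.9) and 7.80 in the 94 with neither (4.80 and 10.4). The quartiles of all states overlapped. The median was 3.20 over all protein-coding genes and 7.20 over the 1221 genes with a start under another ESC Ring1b peak. Hox genes, at 4.40, were low, and they lie mostly with both. Over all states the median was 6.40 with Hox genes and 6.80 without them. Their part in the difference by state was not tested. The printed windows follow the difference by state only loosely, since Cbx8 with both had 9.60 and Nr2f2 with neither 0.400.

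**Figure D5:**
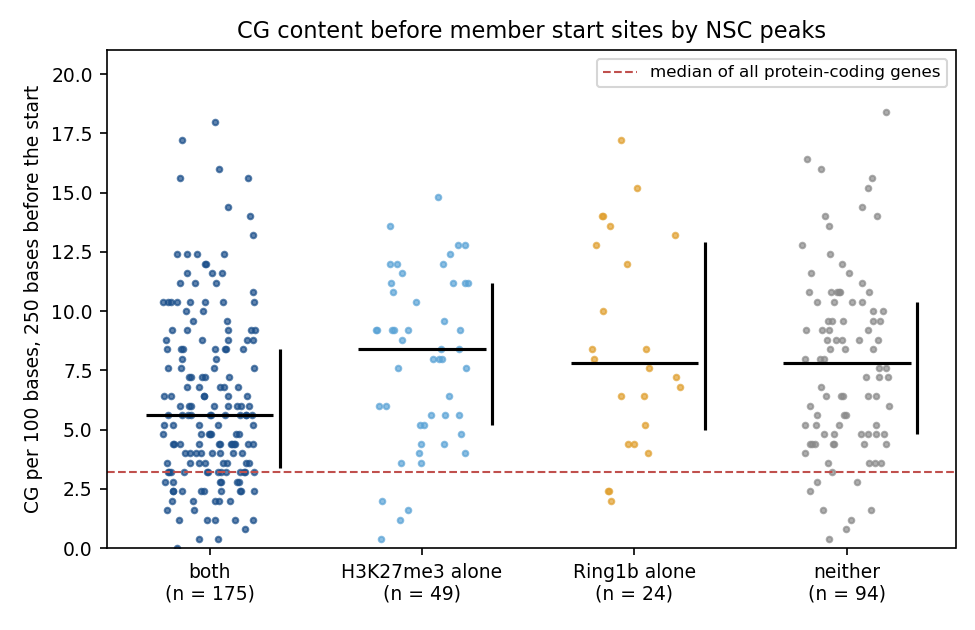
CG dinucleotides per 100 bases in the 250 bases before the start, by NSC state, for 342 genes; each point is a gene, the horizontal line is the median, the vertical line spans the quartiles and the dashed line is the median of all protein-coding genes. The median with both NSC peaks, 5.60, lies below the other 3 medians, and all 4 lie above 3.20.

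Short motifs were counted in the same windows on both strands. The E-box form CAGCTG, a site read by bHLH factors, was in 10.2% of the 342 windows (7.23 to 13.9) and in 11.8% of all protein-coding genes. It was in 12.9% (11.1 to 15.0) of the starts under other ESC Ring1b peaks. The homeodomain core TAATTA was in 2.63% (1.21 to 4.94) and in 4.58% of all. In the starts under other ESC Ring1b peaks it was in 1.31% (0.751 to 2.12), so it was not lower in the regions than there. The GC box GGGCGG, which holds a CG and so follows CpG content, was in 54.4% (48.9 to 59.8) and in 39.6% of all, and in 63.3% of the starts under other ESC Ring1b peaks. By state it was in 52.6% of windows with both, 57.1% with H3K27me3 alone, 70.8% with Ring1b alone and 52.1% with neither, and these intervals overlapped. Among the printed windows GGGCGG occurred in those of Cbx8, Onecut3, Irx2 and Sp9, and CAGCTG in that of Cdx2. A match is a string of letters and not a bound site.

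At the edge of the selection lay regions with a small overlap. The smallest shared stretch was 200 bp with Cbx2 in the region of Gabbr2, 1000 bp with Ezh2 in the region of Efhd1 among others, and 800 bp with H3K27me3 in the region of Gm9979 and in another with no protein-coding start. Just outside, 468 ESC Ring1b peaks missed Cbx2 alone, and the nearest of them was 2000 bp from a Cbx2 peak. Among these was the peak over the CDK inhibitor Cdkn2c, 4400 bp from Cbx2. A further 20 missed Ezh2 alone, the nearest by 2200 bp, and 14 missed H3K27me3 alone, the nearest by 400 bp. The number of regions is therefore set mainly by the Cbx2 list, the shortest of the 4.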

How the data were processed

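The authors deposited 6 peak lists, each from 1 library compared with input, whose values are starts and ends in bp on mm9 with no score. Per the labels BWA is among the processing tools, whereas the study's methods name Bowtie for mapping; tags were counted in windows of 1000 bp at steps of 200 bp, tested against input by a negative binomial distribution, and enriched windows were merged. Input libraries and a Cbx7 list were not analysed here. Depth per library is unknown.

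Peaks that shared at least 1 bp were matched with numpy 2.4.6 and scipy 1.17.1 under Python 3.11.15, by code tested on simulated peaks. Start sites were the 5′ ends of 22208 protein-coding gene names in the GENCODE annotation of NCBIM37 (mm9), and families were patterns of gene symbols, so a gene annotated under another type is not counted. Genes were named if their family had at least 3 in the regions, together with the widest regions of each state and the marker lists, except some genes that are not reported here. Members and lists were chosen with earlier results of these data known. Libraries have no replicates, so shares carry exact Clopper-Pearson 95% intervals and no test was run. Alternatives changed overlap, width, merging, chromosomes and the window for NSC peaks.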

Additional observations from a re-analysis of the deposited data

How the results depend on the processing

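Over 12 alternatives 41 values moved by less than their counting interval or 1.5 times, 10 moved further and none reversed. With peaks of at least 2000 bp alone, there were 216 regions and 220 genes, and 4.63% of regions had Ring1b alone. With NSC peaks counted over the central 2000 bp only, 36.9% of regions had both and 36.7% neither. By NSC peaks over the start itself 29.5% of genes had both, 11.7% Ring1b alone and 42.1% neither, and by peaks within 1000 bp of it 40.1% had both and 32.7% neither. The state of a gene therefore depended on the distance allowed. Leaving out Cbx2 peaks of the smallest width, an alternative chosen after seeing the data, gave 343 regions, with 48.1% in both. No paired analysis was possible because each target and cell type has 1 library. Peak heights and depth were not analysed here, so a peak missed at low depth and an absent peak cannot be told apart.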
